A study of Mus musculus with 24 samples.

Results

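Phagocytic cells of the brain hold a set of surface receptors for material to be engulfed, and 10 such genes were followed here: the Fc receptor genes Fcgr1, Fcgr3, Fcgr2b and Fcer1g, the integrin genes Itgam (CD11b) and Itgb2 (CD18), the engulfment receptor genes Mertk and Msr1, Cd68 (the lysosomal protein CD68), and Aif1 (IBA1). They were taken by symbol from the 24411 genes listed in each of 3 expression tables, and all 10 were found in every table. The symbols were listed by name and not by a threshold on their values, with earlier results of these data known.

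The study asked whether blood factors of young mice alter the aged brain. All recipients were aged (20 months) male C57BL/6 mice, given 8 intravenous injections of 100 µl over 24 days. Whole hippocampi came from mice given saline (n = 5), a young blood plasma preparation (young plasma, n = 6) or a young platelet fraction (n = 6), both prepared from donors of 3 months. Microglia isolated from the hippocampus came from mice given saline (n = 3) or recombinant mouse platelet factor 4 (PF4, a chemokine released by platelets) at 5 µg/ml (n = 4). The microglia were captured with magnetic beads against CD11b, the protein of Itgam, so these cells were chosen by the protein that Itgam encodes, and the part of the capture in its level was not tested. The paper counts these microglia groups as 3 saline and 4 PF4 mice, as many as there are libraries, so each library is taken as 1 mouse.

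Microglia are the resident macrophages of the brain. Fcγ receptors bind antibody-coated material: FcγRI (Fcgr1) and FcγRIII (Fcgr3) activate the cell through the shared γ chain (Fcer1g), whereas FcγRIIB (Fcgr2b) is the inhibitory receptor. CD11b pairs with CD18 to form complement receptor 3, which binds opsonized synapses and debris; MERTK recognizes dying cells through bridging proteins, MSR1 is a class A scavenger receptor, CD68 is used as a stain for lysosome-rich, phagocytic microglia, and IBA1 is an actin-bundling protein used as a general microglial stain.

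The genes lie on 8 chromosomes in the GRCm38 assembly (GENCODE vM21). Fcgr2b (chr1:170958617-170976547), Fcgr3 (chr1:171051174-171064935) and Fcer1g (chr1:171229572-171234365) are neighbours on the minus strand of chromosome 1, and Fcgr1 (chr3:96282909-96293969) is on chromosome 3. Itgam (chr7:128062640-128118491) and Itgb2 (chr10:77530252-77565708) are on the plus strand, as is Mertk (chr2:128698956-128802894). Msr1 (chr8:39581685-39642673), Cd68 (chr11:69664213-69666153) and Aif1 (chr17:35170991-35176068) are on the minus strand. Part of this sequence is shared. Of the 50-base windows of the Fcgr3 transcript, 12.79% also occurred in a transcript of Fcgr2b, and 72.37% of the Itgam windows occurred in Gm49368, an annotated gene model on the same strand that shares 3450 exonic bases with Itgam. Fcgr2b also shares 155 exonic bases with the antisense gene Gm38204. Counts of Fcgr3, Fcgr2b and Itgam are uncertain to that extent, because reads from shared sequence can be split between genes. No value of Gm49368 was used here.

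PU.1 is a transcription factor of macrophages, and the core of its binding site is known to hold the letters GAGGAA. In the RefSeq promoters (GRCm38.p6, 250 bases before to 50 after the start site, both strands searched), 8 of the 10 genes had an entry (Itgb2 and Msr1 had none), and 5 of these 8 (62.5%) held the letters at least once. Of all 27025 genes with a promoter in the same set, 31.3% held them, as did 28.3% of the 32851 single promoters. A match is a description of the letters and not a site. The matched stretches nearest to the start site are shown for the 5 genes, each with the letters GAGGAA in capitals, to let the Fc receptor promoters be read beside those of Itgam, Cd68 and Aif1. The distance is that of the letter which comes first in the direction of the gene.
Fcgr1, 55 bases before the start, chr3:96294011-96294032, plus strand: ttagaaaaGAGGAAggaagttg
Fcgr3, 6 bases before the start, chr1:171059396-171059417, plus strand: tacaaaaaGAGGAAggaaatgg
Itgam, 15 bases before the start, chr7:128062617-128062638, minus strand: agaagtatGAGGAAaaagctat
Cd68, 29 bases after the start, chr11:69666128-69666149, plus strand: tcttggaaGAGGAAatgaaaag
Aif1, 7 bases before the start, chr17:35176046-35176067, plus strand: ataggatgGAGGAActgggtgc
All 5 stretches lie on the strand opposite to the gene. Fcgr3 had 2 promoter entries, and the same stretch lay 15 bases before the start of the other entry. It lies within the span of Fcgr3 given above. Itgam held 3 matches in its window and Cd68 held 2. The promoters of Fcgr2b, Fcer1g and Mertk held none in this window.

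Hippocampal libraries held between 6140510 and 10522699 counted reads (5 saline libraries), 6586357 and 7739868 (6 young plasma libraries) and 6763608 and 7438930 (6 young platelet libraries), and microglia libraries held 19855188 to 36342162 (saline) and 25401175 to 31649835 (PF4). In a principal component analysis of the 17 hippocampi, the first component took 25.2% of the variance and set 5 libraries apart, which were 7146 and 7152 of the saline group, 7147 and 7150 of the young plasma group, and 7148 of the young platelet group. In microglia, 3 libraries held many transcripts of the choroid plexus, the epithelium that makes cerebrospinal fluid: the summed normalized count of 6 choroid plexus markers was 205646 in saline 2, 528132 in PF4 2 and 365879 in PF4 4, against at most 999 in the other 4. Where a difference of the 10 genes passed the threshold or turned sign without these libraries, the value without them is given as well; the other values rest on all libraries. All 12 microglia identity genes were detected in the isolated cells. In saline mice their level per exon length was 17.0 to 68.3 times that of whole hippocampus, whereas the 6 astrocyte markers stood at 0.0263 to 0.304 times. Other cell types were not absent from single libraries. Summed normalized counts reached 196643 for the oligodendrocyte markers after PF4 (group median 8201) and 52932 for the endothelial markers in saline (group median 17296).

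To place the 10 genes, levels were first set side by side as RPKM, the reads of a gene scaled to its exon length and to all counted reads of the library, in saline mice only. In isolated microglia, the γ chain gene Fcer1g (1205 ± 144, SD, n = 3), Fcgr3 (1098 ± 51.4) and Cd68 (924 ± 160) were the most abundant, and ranked 30th, 32nd and 42nd among the 23334 genes with a length. Itgb2 (251 ± 58.1), Itgam (222 ± 23.7) and Aif1 (188 ± 27.2) followed, then Fcgr1 (82.3 ± 7.77), Mertk (67.2 ± 6.94) and Fcgr2b (42.6 ± 5.12). Msr1 was near the floor at 0.917 ± 0.883. Neighbours among the first 3 genes, and among the next 3, had ranges of mean ± SD that overlapped, and the other neighbours in this order did not. Exon length here is the union of all annotated exons of a gene. It exceeds the longest coding transcript by unlike amounts (Fcgr2b 5790 against 3544 bases, Aif1 1532 against 875, Itgb2 3052 against 2970). The order of the genes, and ratios per length between them, depend on that choice. Among the Fcγ receptors the activating Fcgr3 exceeded the inhibitory Fcgr2b in every library, with a ratio per length of 22.0 to 30.0 in saline microglia and 18.3 to 36.2 in saline hippocampi.

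In whole hippocampus the same genes stood at 20.0 ± 1.47 (Fcgr3, SD, n = 5), 19.1 ± 3.43 (Fcer1g), 17.4 ± 1.37 (Cd68), 10.3 ± 1.39 (Mertk), 7.19 ± 1.95 (Itgam), 5.42 ± 0.733 (Itgb2), 3.69 ± 0.873 (Aif1), 1.67 ± 0.31 (Fcgr1), 0.79 ± 0.223 (Fcgr2b) and 0.042 ± 0.0528 (Msr1) RPKM. By the same measure the first 3 did not differ beyond their spread, nor did Mertk from Itgam or Itgam from Itgb2. The order was that of microglia except for Mertk, which had rank 8 of 10 in microglia and rank 4 in hippocampus, for Itgam, which stood above Itgb2, and for the near-equal leading pair. As a description of separate experiments, and without a test, microglia exceeded hippocampus by 46.3 to 63.2 times for 7 genes (Fcgr1, Fcgr2b, Fcgr3, Fcer1g, Itgb2, Cd68 and Aif1), by 30.9 times for Itgam and by 21.8 times for Msr1. The ratio was 6.54 for Mertk, below the 17.0 to 68.3 of the 12 microglia identity genes and above the 0.0263 to 0.304 of the astrocyte markers. MERTK is known in astrocytes as well as in microglia.

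**Figure D1:**
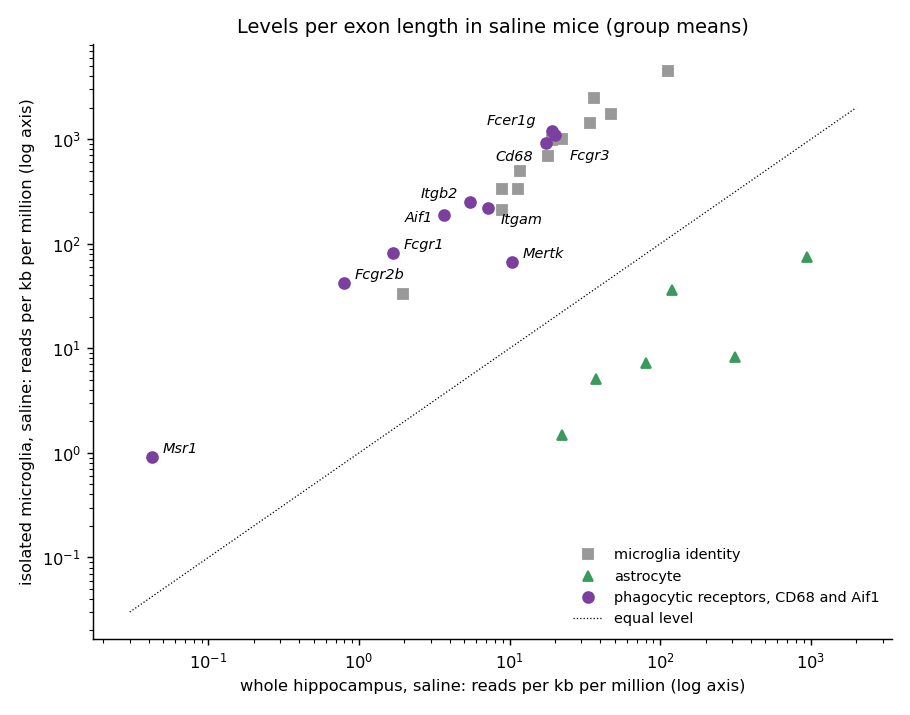
Group mean levels in saline mice, in RPKM on log axes, in isolated microglia (vertical, n = 3) against whole hippocampus (horizontal, n = 5). Circles are the 10 genes, squares 12 microglia identity genes and triangles 6 astrocyte markers; most circles lie among the squares, and Mertk lies closer to the dotted line of equal level, at a ratio of 6.54.

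In whole hippocampus, no gene of the set differed between treated and saline mice at the threshold of the study. Msr1 was too low to be tested, and none of the other 9 passed an unadjusted P of 0.05 in limma, against 3.35% of all 13594 genes that could be tested for young plasma and 3.87% of 13603 for the platelet fraction. The edgeR and DESeq2 tests on the recovered reads also called 0 of them in either comparison, against 3.48% and 3.71% of all genes for young plasma and 3.87% and 4.13% for the platelet fraction. At an adjusted p of 0.05 limma called no gene at all, members or others. Folds after young plasma ran from 0.855 (Itgam) to 1.15 (Fcgr2b), and those after the platelet fraction from 0.738 (Fcgr1) to 1.29 (Fcgr2b). Both comparisons use the same 5 saline libraries. In bulk tissue, fewer cells of a type and less RNA per cell cannot be told apart.

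**Figure D2:**
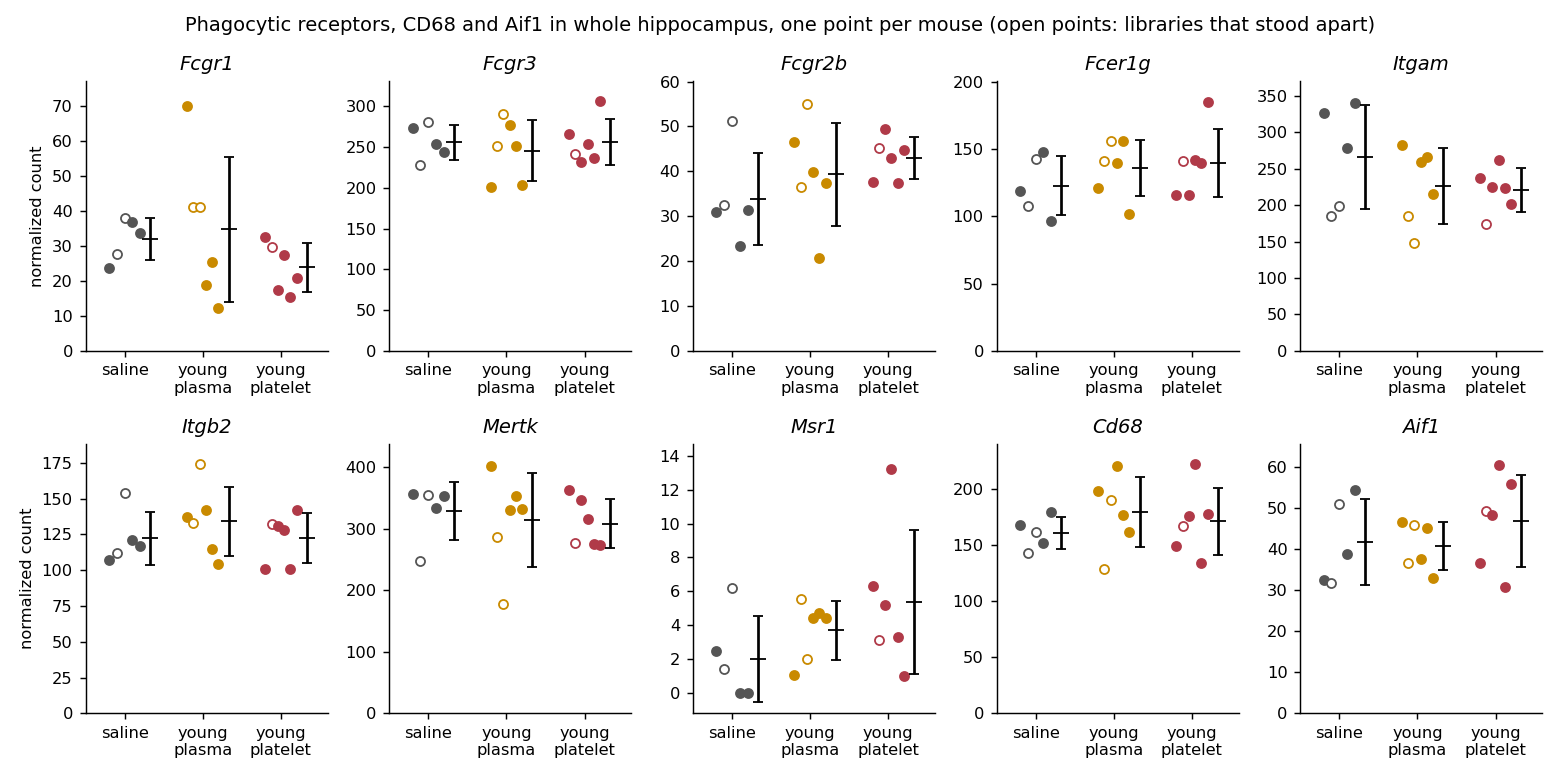
Normalized counts of each gene in whole hippocampus, 1 point per library, with the group mean and SD beside it; open points mark the 5 libraries set apart by the first component. The groups overlap for all 10 genes, where 0.191% (young plasma) and 0.257% (platelet fraction) of all genes tested did not overlap with saline, and the open points lie low for Itgam.

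Cd68, the gene behind the CD68 stain, had normalized counts of 168, 143, 162, 152 and 179 in the 5 saline hippocampi. Young plasma hippocampi ran from 129 to 220 with a median of 184, and young platelet hippocampi from 134 to 222 with a median of 172. Both treated groups therefore reached below and above the saline range. The fold was 1.1 after young plasma (95% interval 0.901 to 1.35; log2 difference 0.14, SE 0.14; two-sided exact permutation P = 0.32) and 1.05 after the platelet fraction (interval 0.859 to 1.27; exact permutation P = 0.621). Saline mice varied by 8.58% (coefficient of variation) where counting alone gives 7.52%, and young plasma mice by 17.6%. An increase in Cd68 of more than 1.35-fold lay outside both intervals, as did a decrease below 0.859-fold.

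Aif1 was lower and noisier, at 32.5, 31.8, 51.1, 38.9 and 54.4 in saline, 32.9 to 46.6 (median 41.4) after young plasma and 30.7 to 60.5 (median 48.9) after the platelet fraction. Only 28 to 58 reads lay behind these values, and counting error alone was 14.9% in saline mice. The groups overlapped, with folds of 0.993 (interval 0.747 to 1.32) and 1.11 (interval 0.801 to 1.55).

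The integrin subunits Itgam and Itgb2 were taken singly, and no test compared their differences. Itgam had normalized counts of 327, 185, 199, 279 and 340 in saline hippocampi, 148 to 282 (median 237) after young plasma and 174 to 262 (median 225) after the platelet fraction. No treated library reached the upper saline values: 0 of 12 lay above the highest saline library, and 1 of 6 in each treated group lay below the lowest. The fold was 0.855 after young plasma (interval 0.629 to 1.16, exact permutation P = 0.355) and 0.844 after the platelet fraction (interval 0.655 to 1.09, exact permutation P = 0.219). Itgb2, its partner, stood at 107, 112, 154, 121 and 117 in saline, 104 to 174 (median 135) after young plasma and 101 to 142 (median 129) after the platelet fraction, with folds of 1.09 (interval 0.877 to 1.36) and 0.997 (interval 0.812 to 1.22).

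The spread of Itgam in hippocampus followed the first principal component. Its coefficient of variation was 26.8% in saline mice, against a counting error of 5.92%, and its 5 lowest values were the 5 libraries that stood apart: 185 and 199 in saline, 185 and 148 after young plasma, and 174 after the platelet fraction. As deviations from the group means, Itgam had a Pearson r of -0.895 with the component over 17 libraries, which share depth and cell makeup and contributed to the component themselves. Itgb2 had an r of 0.574 and Cd68 of -0.223. In the other 12 hippocampi, Itgam was 315 ± 31.8 (SD, n = 3) in saline, 255 ± 28.6 (n = 4) after young plasma and 230 ± 22.1 (n = 5) after the platelet fraction, and the platelet libraries (201 to 262) all lay below the saline libraries (279 to 340). Over the same 5 and 3 libraries, 2.46% of the 13603 genes tested had platelet and saline groups that did not overlap, and 3.83% of 13594 had young plasma and saline groups (4 and 3 libraries) that did not, Itgam not among the latter.

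Without the 5 libraries, an alternative added after the data were seen, Itgam passed the threshold in limma in both comparisons, with a log2 difference of -0.30 (SE 0.13, unadjusted P = 0.0413) after young plasma and -0.46 (SE 0.13, unadjusted P = 0.00339) after the platelet fraction, where 2.29% and 3.06% of all genes tested passed. With the component as a term in the fit over all libraries, also added afterwards, the log2 differences were -0.24 (unadjusted P = 0.0325) and -0.34 (unadjusted P = 0.00832), where 5.51% and 4.6% of all genes passed. Leaving out saline 7146 alone gave -0.36 after the platelet fraction (unadjusted P = 0.043). The 5 libraries left out held the 5 lowest Itgam values, so that choice of libraries was not independent of the values tested. They were unevenly spread, with 2 from saline, 2 from young plasma and 1 from the platelet fraction. The unadjusted P values without them are conditional on that choice. Itgam did not pass after adjustment over all genes in any of these fits. The call on Itgam in hippocampus thus depended on which libraries entered the fit, and the part of the component in it was not tested. Between the 2 treatments Itgam differed by -0.02 (SE 0.16) on the log2 scale.

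**Figure D3:**
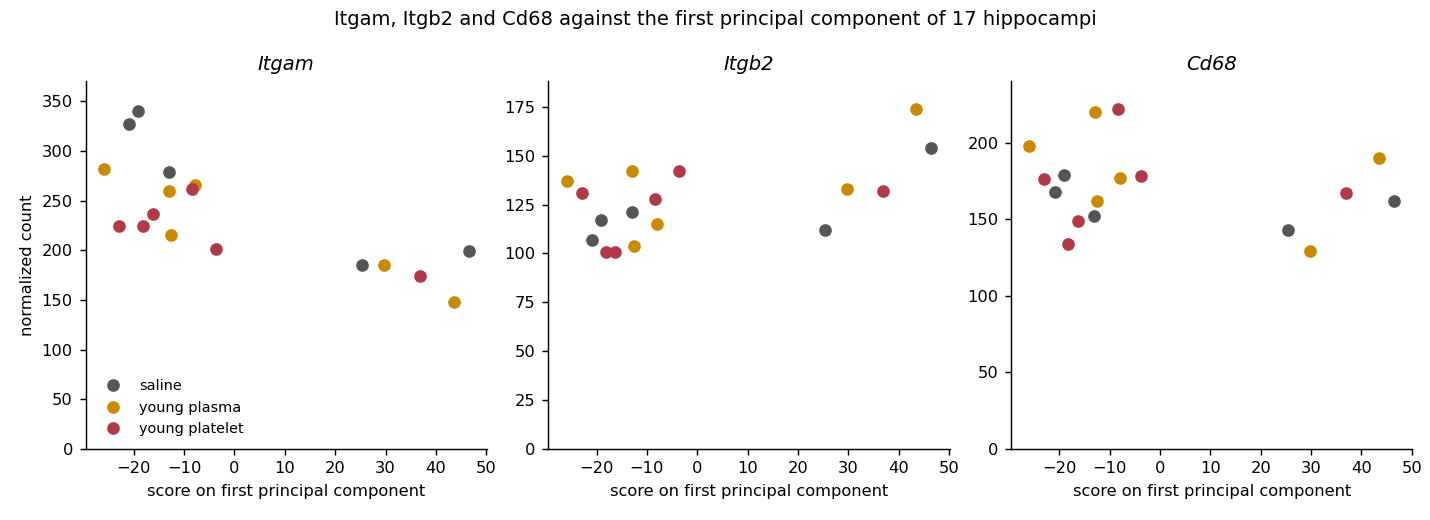
Normalized counts of Itgam, Itgb2 and Cd68 (vertical) against the score of each of 17 hippocampi on the first principal component (horizontal, no unit), coloured by treatment. The 5 libraries with scores above 20 hold the lowest Itgam values, 148 to 199, and run from 112 to 174 for Itgb2 and from 129 to 190 for Cd68.

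The 5 genes most like Itgam over the 17 hippocampi, by the correlation of deviations from group means among 10628 genes, were Acot11 (an acyl-CoA thioesterase, r = 0.943), Fat1 (a protocadherin, r = 0.937), Creb3l2 (a transcription factor, r = 0.937), Entpd5 (a nucleoside diphosphatase, r = 0.933) and Kif5a (a neuronal kinesin, r = 0.929). All 17 libraries entered these ranks, among them the 5 that stood apart, and Itgam itself had an r of -0.895 with the first component. No r over the other 12 was computed for these 5 genes, so the part of the component in their ranks was not tested. Of the set, Mertk ranked 689th (r = 0.766), Cd68 2366th (r = 0.388) and Itgb2 8383rd (r = -0.452). Itgam had an r of -0.505 with the mean of the microglia identity genes over 17 libraries and of 0.06 over the 12 that did not stand apart. Over those 12, its r with Itgb2 was 0.106 and with Mertk 0.564.

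For Cd68, the 5 highest r among the same 10628 genes were those of Pex5l (a channel-associated neuronal protein, r = 0.842), Snhg20 (a noncoding host gene, r = 0.79), Cst3 (cystatin C, r = 0.766), Phldb1 (r = 0.749) and Trem2 (a microglial lipid receptor, r = 0.731). The top ranks of so many genes over 17 libraries hold high r values by selection alone. Whether these 5 exceed that was not tested, and no r over fewer libraries was computed for them. Cd68 and Aif1 had an r of 0.653, and the oligodendrocyte list had an r of 0.589 with Cd68. Over the 36 pairs of the 9 genes without Msr1, the median r was 0.182 and 26 were positive. Itgam and Mertk had the highest r (0.766), followed by Fcgr3 and its signalling partner Fcer1g (0.713), and Fcgr2b with Itgam the lowest (-0.47). Over the 12 hippocampi that did not stand apart, Fcgr2b and Itgam had an r of 0.108, Itgam and Mertk of 0.564 and Fcgr3 and Fcer1g of 0.665, and the lowest and highest pairs were Fcer1g with Mertk (-0.538) and Itgb2 with Cd68 (0.748). The median over the 36 pairs was then 0.188, with 28 positive.

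Of the Fc receptors, the activating Fcgr3 was the most stable in hippocampus, at 273, 228, 281, 254 and 244 in saline, 201 to 291 (median 251) after young plasma and 232 to 307 (median 248) after the platelet fraction. Its folds were 0.952 (interval 0.796 to 1.13) and 0.993 (interval 0.853 to 1.16). The γ chain gene Fcer1g stood at 119, 108, 143, 148 and 96.7 in saline, 102 to 156 (median 141) after young plasma and 116 to 185 (median 141) after the platelet fraction. Its folds were 1.11 (interval 0.883 to 1.39) and 1.13 (interval 0.901 to 1.42), and the groups overlapped.

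Fcgr1 and Fcgr2b, at 11 to 66 reads a library, differed in opposite directions after the platelet fraction, without passing the threshold. The activating Fcgr1 was 23.6, 27.7, 37.9, 36.7 and 33.8 in saline and 15.3 to 32.4 (median 24.2) after the platelet fraction, and 3 of 6 platelet libraries lay below all saline libraries (fold 0.738, interval 0.518 to 1.05; exact permutation P = 0.0823). The inhibitory Fcgr2b was 30.9, 32.5, 51.1, 23.4 and 31.4 in saline and 37.3 to 49.4 (median 43.9) after the platelet fraction, where all 6 libraries exceeded 4 of the 5 saline libraries (fold 1.29, interval 0.959 to 1.73; exact permutation P = 0.0736). The smallest P that 6 against 5 libraries can give is 0.00216.

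With the mean of the microglia identity genes as a term in the limma fit, the log2 difference of Fcgr1 went from -0.44 to -0.12 (unadjusted P = 0.61) and that of Fcgr2b from 0.36 to 0.43 (unadjusted P = 0.0889). Single libraries decided whether these values passed. Without saline 7152, the saline library with the highest Fcgr2b, its log2 difference was 0.52 (unadjusted P = 0.0125, limma), and without the 5 libraries that stood apart it was 0.55 (unadjusted P = 0.0308). Without platelet 7145, that of Fcgr1 was -0.53 (unadjusted P = 0.0441, limma). Of 13603 genes tested, 361, 416 and 876 passed in these fits, in that order. The ratio of Fcgr1 to Fcgr2b per length had a median of 1.9 in saline (1.66 to 3.51) and 1.23 after the platelet fraction (0.792 to 1.93), with overlap. After young plasma, Fcgr1 ran from 12.1 to 69.9 with a coefficient of variation of 60.0%, the widest of the 9 tested genes in that group. Its fold of 0.949 had an interval of 0.543 to 1.66, and Fcgr2b had a fold of 1.15 (interval 0.779 to 1.68).

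Of the engulfment receptors, Mertk was 356, 247, 355, 333 and 353 in saline hippocampi, 178 to 402 (median 331) after young plasma and 274 to 363 (median 296) after the platelet fraction. The lowest library of the saline and of the young plasma group (7146 and 7150) were among those that stood apart. Folds were 0.934 (interval 0.707 to 1.23) and 0.936 (interval 0.779 to 1.13). Its deviations had an r of 0.723 with the astrocyte markers over 17 hippocampi and of 0.752 over the 12 that did not stand apart, and of -0.426 and 0.173 with the microglia identity genes. Msr1 had 0 to 7 reads in saline, 1 to 5 after young plasma and 1 to 12 after the platelet fraction, of which the highest was young platelet 7154 at a normalized count of 13.2. Two-sided exact permutation P was 0.134 after young plasma and 0.0931 after the platelet fraction, and no difference was detectable at this depth.

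Between the platelet fraction and young plasma, 0 of 9 genes passed the threshold in limma, edgeR or DESeq2. Of the 13693 genes tested, 1.89% passed in limma, 2.04% in edgeR and 2.02% in DESeq2. None of the 9 had groups without overlap, against 0.0876% of all genes tested. Folds of platelet fraction over young plasma ran from 0.778 (Fcgr1, interval 0.454 to 1.33) to 1.12 (Fcgr2b, interval 0.824 to 1.53). Cd68 had a fold of 0.951 (interval 0.763 to 1.18), and Mertk of 1.0 (interval 0.785 to 1.28).

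PF4 was compared with saline in isolated microglia, where read counts were high: Cd68 had 19698 to 44460 reads a library, and Fcgr1, the lowest gene apart from Msr1, had 3996 to 8236. The study applied an unadjusted P of 0.01 to its DESeq2 test in microglia. At that P none of the 10 genes passed in limma, against 0.389% of the 11320 genes tested, a smaller share than DESeq2 gave below. None passed 0.05 in limma either, against 3.45% of all genes, and at 0.01 edgeR and DESeq2 called 0 of the 10, against 0.3% and 1.58% of all genes. Without Msr1, folds ran from 0.812 (Aif1) to 1.21 (Mertk) and their intervals from 0.599 to 1.67. For these 9 genes counting error was 0.402% to 1.34%, and the coefficient of variation between libraries was 5.39% to 25.6%. With 3 against 4 libraries the smallest exact permutation P is 0.0286, and none of the 10 genes had groups without overlap, against 4.62% of all genes tested.

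**Figure D4:**
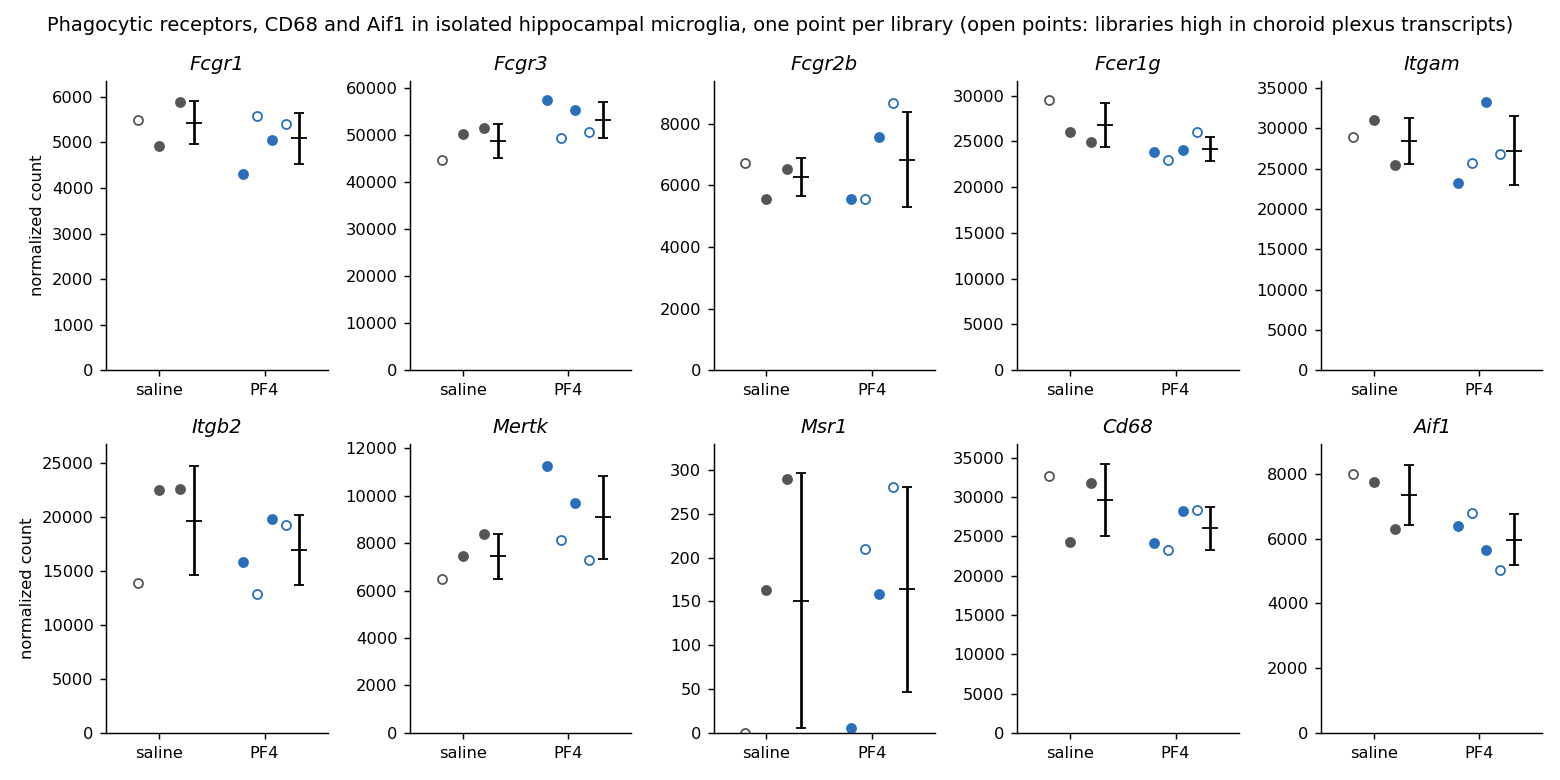
Normalized counts of each gene in isolated microglia, 1 point per library, with the group mean and SD beside it; open points mark the 3 libraries high in choroid plexus transcripts. Saline and PF4 overlap for every gene, and Msr1 is at or near 0 in 1 library of each group.

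In microglia Cd68 stood at 32637, 24312 and 31745 in saline 2 to 4 and at 24119, 23244, 28261 and 28391 in PF4 1 to 4. Of the PF4 libraries, 2 lay below all saline libraries and none above them. The fold was 0.883 (interval 0.683 to 1.15, two-sided exact permutation P = 0.286). Without the 3 libraries high in choroid plexus transcripts, the log2 difference went from -0.18 to -0.09.

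Aif1 was 7992, 7747 and 6297 in saline and 6403, 6801, 5644 and 5029 after PF4, with a fold of 0.812 (interval 0.599 to 1.1, exact permutation P = 0.143). It had the smallest limma P of the 10 (unadjusted 0.155, adjusted 0.9816), and 2 of 4 PF4 libraries lay below all saline libraries. The deviations of Aif1 and Cd68 had an r of -0.61 over the 7 microglia libraries, where pairs of the 9 genes without Msr1 ran from -0.775 to 0.908. With so few libraries this value is uncertain, and it was not tested against the 0.653 of hippocampus.

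Itgam stood at 28950, 31021 and 25401 in saline and 23186, 25684, 33329 and 26785 after PF4, and the PF4 values spread to both sides (fold 0.952, interval 0.732 to 1.24). Itgb2 was 13845, 22547 and 22575 in saline and 15840, 12871, 19787 and 19302 after PF4 (fold 0.871, interval 0.607 to 1.25). Its 2 lowest values were saline 2 and PF4 2, both high in choroid plexus transcripts. Without the 3 such libraries its log2 difference was -0.35 (unadjusted P = 0.144, limma).

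The Fc receptors in microglia lay close together between groups. Fcgr3 was 44524, 50151 and 51366 in saline and 57276, 49355, 55270 and 50637 after PF4 (fold 1.09, interval 0.877 to 1.36). Fcer1g was 29487, 26020 and 24929 in saline and 23839, 22982, 24014 and 26064 after PF4, where 3 of 4 libraries lay below all saline libraries (fold 0.905, interval 0.722 to 1.13, exact permutation P = 0.114). The ratio of Fcgr3 to Fcer1g per length was 0.76 to 1.04 in saline and 0.978 to 1.21 after PF4.

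Fcgr1 was 5483, 4932 and 5881 in saline and 4317, 5584, 5050 and 5395 after PF4 (fold 0.934, interval 0.693 to 1.26). Fcgr2b was 6736, 5575 and 6535 in saline and 5559, 5555, 7559 and 8688 after PF4, with 2 PF4 libraries above and 2 below every saline library (fold 1.07, interval 0.763 to 1.51).

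Mertk was 6486, 7474 and 8382 in saline and 11258, 8136, 9680 and 7301 after PF4, and 2 of 4 PF4 libraries exceeded all saline libraries (fold 1.21, interval 0.883 to 1.67, exact permutation P = 0.257). The deviations of Fcgr3 and Mertk followed each other (r = 0.908) and ran against the choroid plexus markers (r = -0.965 and -0.893, 7 libraries that share their scaling), the part of which in these values was not tested. Without the 3 libraries high in them, the log2 difference of Mertk was 0.40 (unadjusted P = 0.109, limma).

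Msr1 behaved as present or absent: 0, 163 and 290 in saline and 6.09, 210, 158 and 281 after PF4, from 0 to 406 reads. The 0 in saline 2 and the 6.09 in PF4 1 gave a log2 difference of 1.32 with an SE of 2.37, which turned to -1.27 without saline 2 and to -2.70 without the libraries high in choroid plexus transcripts. Its deviations had an r of 0.875 with the border macrophage markers over the 7 libraries, whose summed normalized count ran from 2810 to 9776 in saline and 4465 to 13234 after PF4. Msr1 is known in macrophages of the brain's borders, and the part of such cells was not tested.

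**Figure D5:**
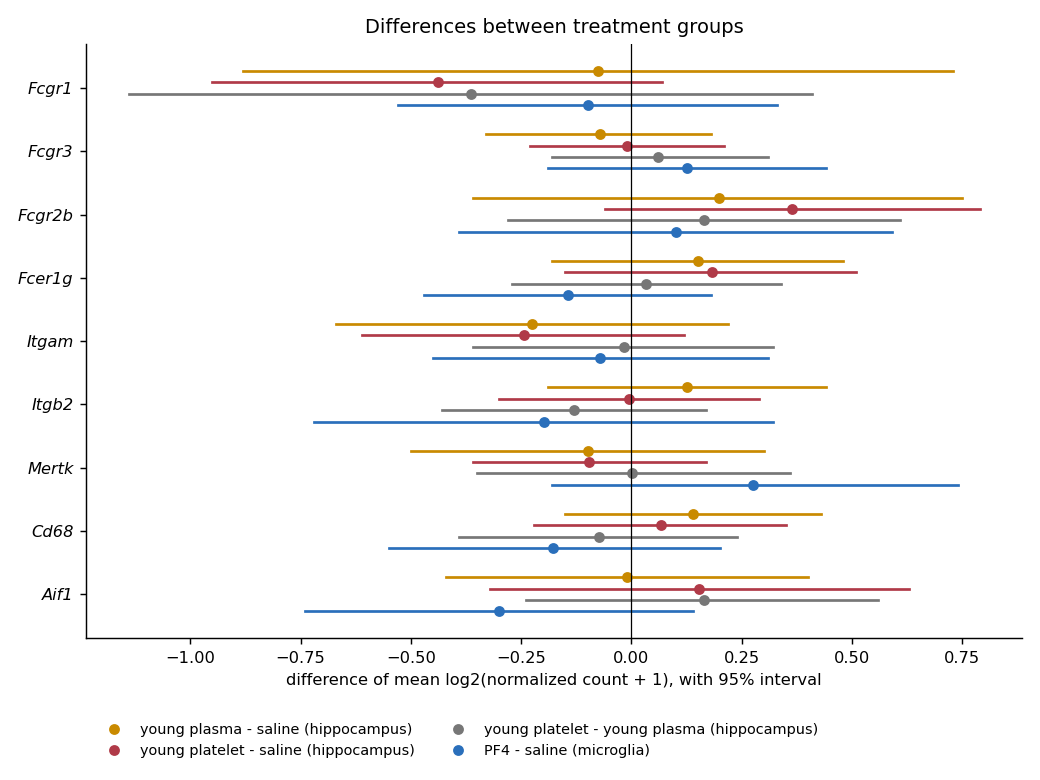
Difference between group means of log2(normalized count + 1) for 9 genes (Msr1 is left out), with 95% intervals from limma, in 4 comparisons. Every interval crosses 0, and the narrowest in each hippocampal comparison is that of Fcgr3.

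The genes around these receptors were counted by list, with limma as above. Of all genes tested, 3.35% passed after young plasma, 3.87% after the platelet fraction and 1.89% between the 2 treatments. The counts of these short lists were not tested against those shares. Of 12 tested genes of Fc receptor signalling, Fcgrt (the neonatal Fc receptor) rose after young plasma, from 379 ± 36.0 (SD, n = 5) to 438 ± 43.4 (n = 6) in normalized counts (log2 difference 0.21, unadjusted P = 0.047), and Inpp5d (SHIP1, the phosphatase that acts downstream of FcγRIIB) fell after the platelet fraction, from 139 ± 22.1 to 108 ± 22.6 (log2 difference -0.37, unadjusted P = 0.0383). Of 9 tested genes of other leukocyte integrins and their linkers, Itgb5 (which pairs with the αv integrin) rose after young plasma, from 89.8 ± 15.1 to 108 ± 6.49 (log2 difference 0.28, unadjusted P = 0.0445), and 0 passed after the platelet fraction. Of the other engulfment receptors, bridging proteins and don't-eat-me signals, 0 of 16 passed after young plasma and 0 of 15 after the platelet fraction. Of 14 genes of the engulfment machinery 0 passed in either. Cd36, a scavenger receptor, was lower after the platelet fraction than after young plasma (11.0 ± 4.04 against 22.3 ± 11.7, n = 6 each, log2 difference -0.86, unadjusted P = 0.0255). None of these calls had an adjusted p below 0.99.

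In PF4 microglia 0 of 14, 0 of 11, 0 of 15 and 0 of 15 genes of these lists passed, against 0.389% of all genes tested. Their median log2 differences were -0.10, 0.14, 0.01 and -0.08, beside 0.03 over all genes tested.

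Some markers of cell content passed the unadjusted threshold in hippocampus, as did 3.35% (young plasma) and 3.87% (platelet fraction) of all genes tested. Between the 2 treatments 1.89% of all genes passed. None of these markers had an adjusted p below 0.7852. Genes of 1 list share cell makeup, so they do not count as independent results. Of the 12 microglia identity genes, 11 had lower values after either treatment (median log2 difference -0.08 after young plasma and -0.17 after the platelet fraction, beside -0.01 and 0.00 over all genes tested). Those that passed were Tmem119 (624 ± 43.9 to 525 ± 57.8, log2 difference -0.26, unadjusted P = 0.0148) and Siglech (283 ± 21.2 to 234 ± 28.5, log2 difference -0.28, unadjusted P = 0.0196), both after the platelet fraction. The median of the 9 phagocytic genes was -0.01 in both. All 6 oligodendrocyte markers rose in both comparisons (median 0.50 and 0.60); Mobp went from 1841 ± 494 to 2996 ± 425 after the platelet fraction (log2 difference 0.73, unadjusted P = 0.000505). Of the other brain cell lists, Prox1 (a factor of dentate granule neurons) was lower after young plasma (370 ± 118 against 525 ± 68.4, log2 difference -0.55, unadjusted P = 0.0114), Slc1a3 (an astrocyte glutamate transporter) was lower after the platelet fraction (6666 ± 796 against 7597 ± 644, log2 difference -0.19, unadjusted P = 0.048), and Pecam1 (an endothelial adhesion protein) was lower after the platelet fraction than after young plasma (log2 difference -0.30, unadjusted P = 0.031). Dusp1, an immediate early phosphatase of the dissociation list, was higher after young plasma (529 ± 57.6 against 424 ± 64.3, log2 difference 0.32, unadjusted P = 0.0141). No tested gene of the choroid plexus, ependymal, border macrophage or platelet lists passed in the comparisons with saline. With the mean of the microglia identity genes as a term, 0 of 9 members passed in any hippocampal comparison. Of all genes tested, 627 of 13594 then passed after young plasma, 477 of 13603 after the platelet fraction and 399 of 13693 between the treatments.

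Markers of blood-borne phagocytes were low. The 9 listed monocyte and neutrophil markers summed to normalized counts of 8.94 to 71.6 over all hippocampi, against 6150 to 9099 for the microglia identity genes, and none of them passed the filter in hippocampus, nor did any lymphocyte marker (summed normalized count 2.19 to 20.8). In microglia libraries they summed to 3284 to 6602 in saline and 743 to 14778 after PF4, against 887036 to 1325959 for the identity genes. Hba-a1, a haemoglobin gene of red cells, was higher after the platelet fraction than in saline (292 ± 275 against 87.6 ± 38.7, log2 difference 1.46, unadjusted P = 0.0155). The genes that respond to tissue dissociation summed to 556768 to 801910 in saline microglia and 527543 to 635236 after PF4. Of these, 9 of 10 were lower in value after PF4 and 0 of 10 passed the threshold, against 0.389% of all genes tested. The part of any of these in the values of the phagocytic genes was not tested.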

How the data were processed

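RNA-seq libraries of 17 hippocampi and 7 preparations of hippocampal microglia were grouped by their deposited labels. Per the labels, STAR (alignment to mm10), RSEM (gene counts) and DESeq2 were used by the authors, and the deposited signal is the count of a gene over the size factor of its library (normalized count). Their methods name a modified Smart-Seq2 protocol, the labels a strand-specific poly(A) kit. The deposited columns of the authors' own comparisons (fold changes and p-values) were not used. Whole reads were recovered from the steps of the values (100% within 0.01 of a read).

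Main tests used limma 3.58.1 (R 4.3.3, variance trend) on log2(normalized count + 1) over all genes that reached 10 in 5 hippocampal or 3 microglia libraries, with the 2 groups compared, an unadjusted P of 0.05 (hippocampus) or 0.01 (microglia) as in the study, and Benjamini-Hochberg adjustment over all genes. Platelet and plasma libraries were put on 1 scale through the saline libraries of both tables (ratio 0.995093). Values of platelet libraries are printed as in their own table and saline values as in the young plasma table. Single genes were tested by two-sided exact permutation (numpy 2.4.6). Alternatives were tests of the recovered reads (edgeR 4.0.16, DESeq2 1.42.0), other pseudocounts (0.5 and 5), filters (none and 50), scalings, covariates and left-out libraries. In simulated counts, limma recovered 83 of 100 genes changed 1.5-fold at P 0.05 after young plasma, 83 of 100 after the platelet fraction, and 2 of 91 at P 0.01 in microglia. These genes were drawn at random above a minimum mean and simulated without the first component. Their rates are therefore not those of the 10 genes, whose intervals are given above.

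Genes named outside the set were those of the fixed companion and marker lists past the threshold (at most 4 a list and comparison, by P) and the 5 genes most like Cd68 and Itgam with a mean normalized count of 50 or more. The set and the lists were chosen with earlier results of these data known.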

Additional observations from a re-analysis of the deposited data

Results flagged for a closer look

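Of 40 groups of values checked for a sample far from the others (a gap of the extreme library to its nearest neighbour beyond Dixon's 95% limit for its group), 2 were marked, and chance marks about 1 in 20 groups. Mertk in saline hippocampus 7146 had a normalized count of 247 where the other 4 saline libraries lay between 333 and 356. This library was 1 of the 5 set apart by the first component. Fcer1g in young platelet hippocampus 7595 had a normalized count of 185 where the other 5 lay between 116 and 142. That library did not stand apart, and its Fcgr3 (307) was also the highest of the group.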

How the results depend on the processing

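Differences are log2, treated minus control. Of 801 member values recomputed, 740 kept their direction and their side of the threshold, 52 turned sign and 9 passed the threshold. The 52, of which 33 came from leaving out 1 library, belonged to 13 combinations of gene and comparison whose own unadjusted P was 0.442 or higher, and none of the 52 had a P under 0.144. The cause of the turns was not tested.

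The number of members past the threshold after young plasma went from 0 to 1 (Itgam) both without the 5 libraries set apart and with the first component as a term, and after the platelet fraction from 0 to 2 (Itgam and Fcgr2b) in both of these settings, which were chosen after seeing the data. Of all genes tested, 2.29% and 5.51% passed in these settings after young plasma and 3.06% and 4.6% after the platelet fraction. Leaving out each library in turn, the number of members was 0 to 1 after the platelet fraction. It was Itgam without saline 7146 (440 of 13603 genes tested passed), Fcgr2b without saline 7152 (361) and Fcgr1 without platelet 7145 (876). Under each other setting run the number of members stayed at 0 in all 4 comparisons. No member had an adjusted p below 0.05 in any setting run.

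After young plasma, Fcgr1 turned to 0.14 (edgeR), 0.128 (DESeq2) and 0.149 (microglia identity term), Mertk to 0.025 (without the libraries set apart), and Aif1 to 0.002 (library totals) and 0.056 (identity term). Left-out libraries gave -0.315 to 0.173 for Fcgr1, -0.197 to 0.056 for Mertk and -0.096 to 0.092 for Aif1. After the platelet fraction, the identity term turned Fcgr3 to 0.078 and Itgb2 to 0.102, and Itgb2 was 0.05 without the libraries set apart and 0.036 with the component. Left-out libraries gave -0.063 to 0.025 for Fcgr3, -0.052 to 0.081 for Itgb2 and -0.013 to 0.133 for Cd68.

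Between the platelet fraction and young plasma, Mertk (0.002) turned to -0.006 (TMM), -0.01 (library totals), -0.042 (edgeR), -0.035 (DESeq2), -0.067 (identity term), -0.182 (without the libraries set apart) and -0.075 (component). Left-out libraries gave -0.003 to 0.27 for Fcgr2b, -0.051 to 0.083 for Fcer1g, -0.132 to 0.052 for Itgam and -0.152 to 0.083 for Mertk. In microglia, Msr1 was -2.703 without the libraries high in choroid plexus transcripts, and left-out libraries gave -1.271 to 2.821 for Msr1, -0.024 to 0.191 for Fcgr2b and -0.172 to 0.002 for Itgam.

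PF4 and saline microglia share replicate numbers. Same-numbered libraries had correlations of deviations of 0.136, 0.0586 and 0.0321 over 11320 genes, so the numbers were not taken as pairs. The replicate block left 0 members past the threshold, where 17 of 11320 genes were called higher and 12 lower. PF4 1 has no saline library of its number, so in this fit the difference rested on the other libraries. Itgam was 0.002 there, the value it also had without PF4 1, so the turn is not an effect of pairing. Depth limits Msr1, Fcgr1, Fcgr2b and Aif1 in hippocampus, where counting error was 14.9% or more of the value.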
